A study of Mus musculus with 16 samples.

Results

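Expression of 10 genes that define T cells was followed in the lamina propria of the mouse gut: *Cd3e*, *Trac*, *Cd4*, *Cd8a*, *Cd8b1*, *Lck*, *Tcf7*, *Thy1*, *Cd5* and *Bcl11b*. They were taken by name, with no measured value in the rule, and all 10 were found among the 35647 gene identifiers of the count table. All 10 also passed the filter on low counts in every fit, so none is missing from the comparisons.

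RNA had been sequenced from 16 libraries in 4 groups of 4: ileum of mice with Δchat *Bifidobacterium breve*, ileum of mice with wild-type (WT) *B. breve*, colon of mice with Δchat *B. breve* and colon of mice with WT *B. breve*. *B. breve* is a gut commensal, and the Δchat strain is the one that the design gives as making no acetylcholine. All mice carried a wild-type genotype, were germ-free before colonization and held a single bacterium for 5 weeks, so no group is free of bacteria, and the mice's age and sex are not given in the sources used here. Each strain was given to 4 mice, and ileum and colon libraries with the same strain and number were taken as the same mouse. The cells were lamina propria immune cells taken through a Percoll gradient of 40% and 80%, a mixture in which no cell type had been sorted.

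The T cell receptor recognizes peptides through its variable chains and signals through the CD3 chains, which the kinase LCK phosphorylates while the coreceptors CD4 and CD8 bring it to the receptor. CD4 marks helper and regulatory T cells, CD8 marks cytotoxic T cells, and the factors TCF1 (*Tcf7*) and BCL11B set up and keep the T cell programme. In the gut, T cells lie both under and within the epithelium, and several of these genes are also used by other cells: *Cd4* by some resident macrophages, *Cd8a* by some dendritic cells, *Thy1*, *Tcf7* and *Bcl11b* by innate lymphoid cells, and *Cd5* by some B cells.

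Each library held between 15.9 and 23.6 M estimated counts (M for mega), with 17261 to 18206 genes above 0. The libraries held plasma cell, B cell and macrophage RNA beside T cell RNA. The 9 plasma cell markers summed to between 3670 and 23753 CPM (counts per M counts of the library), against between 218 and 603 CPM for the 10 T cell genes. The 10 epithelial markers summed to between 44.1 and 391 CPM in 15 libraries and to 3340 CPM in that of colon, Δchat mouse 3, which stands apart. Immunoglobulin genes took 7.56 to 12.9% of counts in ileum Δchat, 12.3 to 20.2% in ileum WT, 3.11 to 4.32% in colon Δchat and 5.79 to 10.4% in colon WT. In bulk RNA such as this, fewer T cells and less RNA per T cell cannot be told apart.

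Set against transcript length, the genes kept a similar order of levels in all groups. *Trac*, the constant region of the T cell receptor alpha chain, stood highest, at 104 ± 20.9 CPM per kb of transcript in ileum Δchat, 112 ± 11.4 in ileum WT, 56.4 ± 28.9 in colon Δchat and 52.6 ± 12.4 in colon WT. *Thy1* and *Lck* followed in each group, and *Bcl11b* was lowest, at 4.80 ± 0.881 CPM per kb in ileum Δchat, 4.53 ± 1.06 in ileum WT, 2.53 ± 0.531 in colon Δchat and 1.92 ± 0.127 in colon WT (SD, n = 4). *Cd4* ranked above *Tcf7* per kb in ileum (30.6 ± 12.7 against 27.1 ± 6.01 in Δchat, 36.0 ± 4.51 against 26.4 ± 3.28 in WT) and below it in colon (13.0 ± 5.51 against 23.7 ± 7.06 in Δchat, 11.9 ± 1.25 against 24.8 ± 6.17 in WT), and the spreads (mean ± SD) of this pair overlapped in both Δchat groups. Those of *Thy1* and *Lck* overlapped in all groups but ileum Δchat, and those of *Cd5* and *Cd8a* in all 4. The spreads of *Bcl11b* and *Cd8b1* overlapped in all groups but colon WT. The lengths used, 413 bases for *Trac* and 8111 for *Bcl11b*, were the shortest and the longest of the 10. Over the 16 libraries, the Pearson correlations of log2 CPM between the 45 pairs of members ran from 0.27 to 0.97 with a median of 0.81. *Trac* with *Lck* was the highest pair, and *Cd4* with *Tcf7* the lowest. These correlations describe 16 libraries that share tissue, mouse and strain.

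The genes whose pattern was most like the mean of the members were mostly other T cell genes. *Trbc2*, a constant region of the receptor beta chain, led at r = 0.98 over 16 libraries. *Lat*, the adaptor that links the receptor to its downstream signals, followed at 0.98, and after it came *Cd3d* (0.98), *Cd6* (0.97), *Cd3g* (0.95), *Themis* (0.95), *Bin2* (0.95), *Gimap4* (0.95), *Prkcq* (0.94) and *Cd247* (0.93). For *Cd8a* alone, the nearest were *Themis* (0.95), *Gimap4* (0.92), *Lat* (0.92), *St8sia1* (0.91) and *Slfn1* (0.91). The nearest to *Cd4* were *Fyb*, an adaptor of T cells and myeloid cells (0.98), *Cd101* (0.97), *Mapkapk2* (0.96), *Spty2d1* (0.96) and *Milr1*, a receptor of myeloid cells and mast cells (0.96). Neither the nearest to *Cd8a* nor those to *Cd4* held a gene of the receptor complex. *Cd4* itself correlated with *Cd3e* at 0.88 and with *Trac* at 0.88.

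Upstream sequence is shown for *Cd3e*, *Cd8a* and *Lck*, the last with more than 1 start site in the reference, since promoters are where T cell factors are known to act. These members were picked by hand and not by a rule. RefSeq (GRCm38) promoter windows were found for 6 of the 10 members, and 4 windows of 190 bases from 3 genes are printed, each running from 250 to 61 bases before the annotated start, 5′ to 3′ on the gene's strand. Capitals mark matches on either strand. The ETS factor motif searched was GGAAGT. The RUNX factor motif was TGNGGT. For TCF and LEF factors the letters ATCAAAG were searched. For GATA factors they were AGATAA. Cd3e lies at chr9:45009672-45009861 on the minus strand, Cd8a at chr6:71373177-71373366 on the plus strand, and the windows of Lck at chr4:129573702-129573891 (upstream start) and chr4:129558433-129558622 (downstream start) on the minus strand.
Cd3e: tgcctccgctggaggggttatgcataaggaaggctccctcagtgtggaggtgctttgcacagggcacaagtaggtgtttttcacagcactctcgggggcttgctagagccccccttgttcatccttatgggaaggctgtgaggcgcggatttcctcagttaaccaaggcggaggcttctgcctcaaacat
Cd8a: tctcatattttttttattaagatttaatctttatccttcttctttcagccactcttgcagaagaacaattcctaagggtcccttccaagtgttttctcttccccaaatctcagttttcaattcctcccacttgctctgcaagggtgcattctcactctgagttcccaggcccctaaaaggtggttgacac
Lck upstream start: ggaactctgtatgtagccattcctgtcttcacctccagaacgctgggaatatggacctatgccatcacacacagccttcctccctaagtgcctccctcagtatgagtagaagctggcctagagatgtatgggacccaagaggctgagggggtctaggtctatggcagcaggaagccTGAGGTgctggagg
Lck downstream start: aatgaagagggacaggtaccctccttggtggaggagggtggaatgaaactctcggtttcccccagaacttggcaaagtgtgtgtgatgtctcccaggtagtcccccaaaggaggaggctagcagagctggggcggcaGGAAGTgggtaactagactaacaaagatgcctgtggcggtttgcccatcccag
The upstream *Lck* window held 1 match to the RUNX motif and the downstream window 1 match to the ETS motif, while the windows of *Cd3e* and *Cd8a* held none of the 4 motifs. Of 32851 promoter windows of this length, 32.8% held the RUNX motif, 13.7% the ETS motif, 8.06% the GATA motif and 2.51% the TCF and LEF motif. The counts are per gene and do not separate the start sites of *Lck*.

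Ileum was compared with colon within each strain. T cell genes were higher in ileum with either strain. With Δchat *B. breve*, 6 of the 10 rose (*Cd3e*, *Cd4*, *Cd8a*, *Cd8b1*, *Thy1* and *Bcl11b*), where 13.3% of the 15198 genes tested were called, 8.31% higher and 5.03% lower. With WT *B. breve*, 6 rose as well (*Cd3e*, *Trac*, *Cd4*, *Lck*, *Thy1* and *Bcl11b*), where 28.8% were called, 13.7% higher and 15.1% lower. A call is an adjusted p under 0.05 from the edgeR quasi-likelihood test with Benjamini-Hochberg adjustment over all genes, and every adjusted p below comes from that test unless another tool is named. None of the 10 was called lower. Their median log2 fold change was 0.90 with Δchat and 0.86 with WT, and that of all genes was -0.02 with Δchat and -0.04 with WT.

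**Figure D1:**
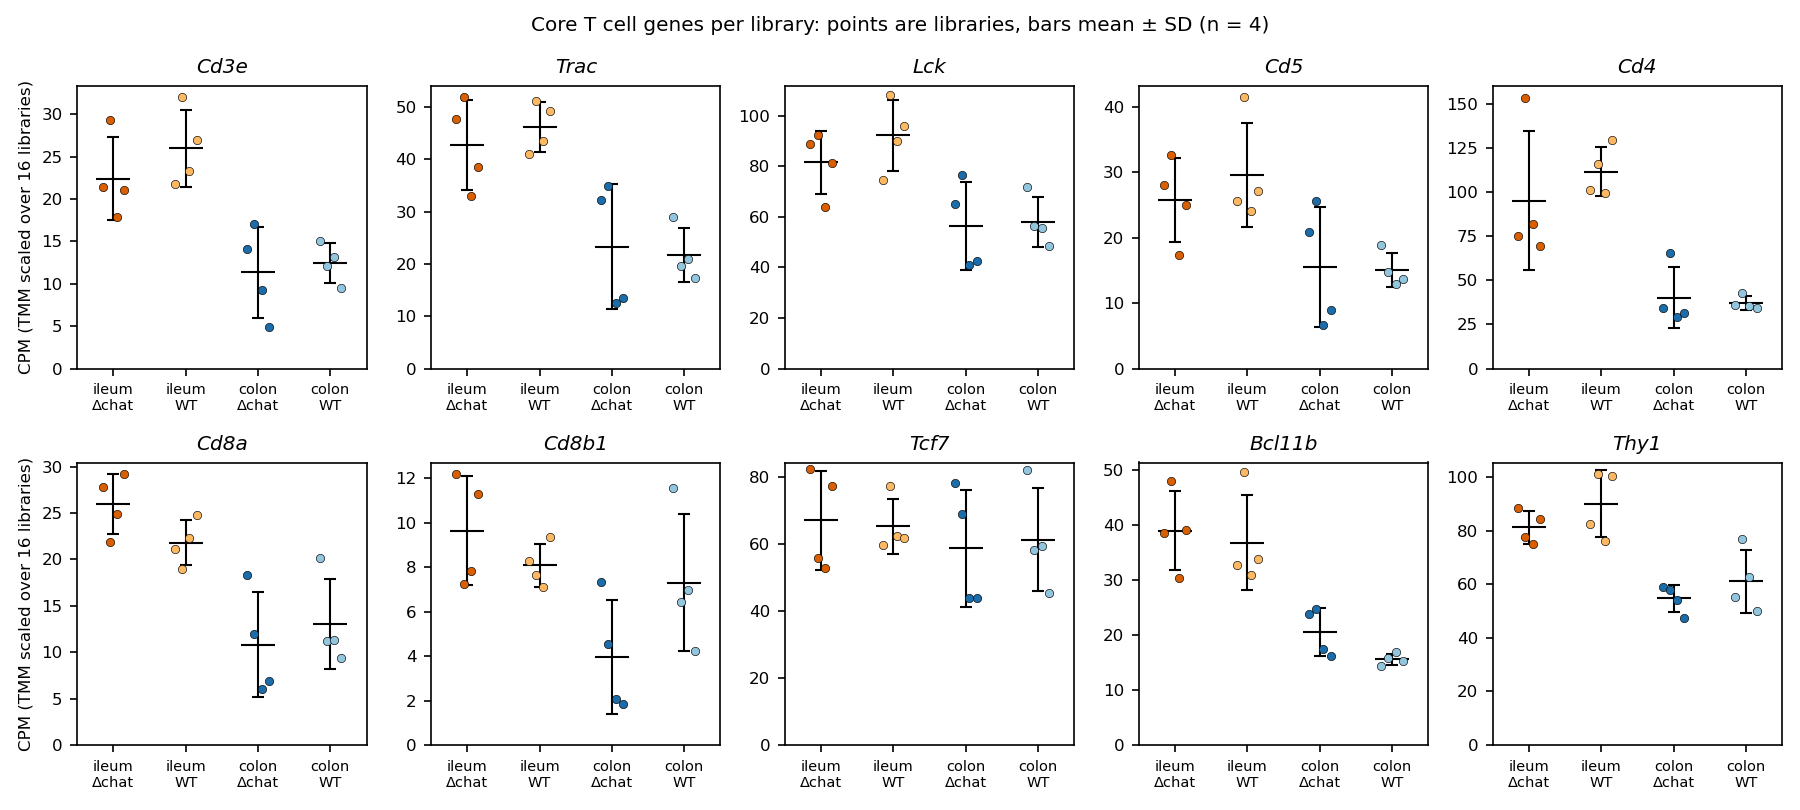
CPM of each of the 10 T cell genes (vertical axis, TMM scaled over 16 libraries) in ileum Δchat, ileum WT, colon Δchat and colon WT; each point is a library and bars give the mean and SD of 4. The points of *Cd4* and *Bcl11b* do not overlap between ileum and colon with either strain, and those of *Tcf7* overlap across all 4 groups.

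Of the receptor chains, *Cd3e* rose in ileum with both strains and *Trac* with WT. *Cd3e* (ENSMUSG00000032093, GRCm38 chr9:44998740-45009627, minus strand) encodes the epsilon chain of CD3. It stood at 21.4, 29.3, 17.8 and 21.0 CPM in ileum of Δchat mice 1 to 4, against 14.1, 17.0, 9.26 and 4.94 CPM in their colon. In WT mice it stood at 21.7, 32.0, 23.2 and 27.0 CPM in ileum, against 15.1, 12.1, 13.1 and 9.48 CPM in colon. The tissues did not overlap with either strain, and Δchat mouse 4 had the lowest colon value. The log2 fold change of ileum over colon was 0.98 ± 0.29 (SE; adjusted p = 0.0368) with Δchat and 1.06 ± 0.29 (adjusted p = 0.0149) with WT.

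*Trac* (ENSMUSG00000076928, GRCm38 chr14:54220521-54224206, plus strand) had 47.6, 52.0, 32.9 and 38.5 CPM in ileum Δchat, against 32.2, 34.96, 12.5 and 13.6 CPM in colon Δchat. In WT mice, the values were 41.1, 51.1, 43.4 and 49.2 CPM in ileum and 29.0, 19.5, 21.0 and 17.3 CPM in colon. The tissues overlapped with Δchat, where colon of mouse 2 exceeded ileum of mouse 3, and did not with WT. Its log2 fold change was 1.09 ± 0.30 with WT (adjusted p = 0.0149). With Δchat the value was 0.87 ± 0.30 and did not pass (adjusted p = 0.0644). With the mouse as a block it passed at 0.0174, the lowest adjusted p of its 14 alternatives, whose highest was 0.155.

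*Lck* (ENSMUSG00000000409, GRCm38 chr4:129548344-129573641, minus strand), the kinase that starts receptor signalling, was at 88.7, 92.1, 64.0 and 81.1 CPM in ileum Δchat and at 65.0, 76.7, 40.9 and 42.5 CPM in colon Δchat, where colon of mice 1 and 2 exceeded ileum of mouse 3. With WT it had 74.7, 108, 89.9 and 96.0 CPM in ileum, all above the colon values of 71.9, 56.5, 55.5 and 48.4 CPM. The log2 fold change was 0.67 ± 0.20 with WT (adjusted p = 0.0219) and 0.53 ± 0.20 with Δchat (adjusted p = 0.0887). *Cd5* (ENSMUSG00000024669, GRCm38 chr19:10717116-10739002, minus strand), which dampens receptor signalling, passed with neither strain. Its values were 28.0, 32.6, 17.4 and 25.0 CPM in ileum Δchat and 20.9, 25.6, 6.64 and 8.87 CPM in colon Δchat, and the log2 value was 0.73 ± 0.35 (adjusted p = 0.186). In WT mice they were 25.6, 41.4, 24.1 and 27.1 CPM in ileum and 18.9, 14.7, 12.9 and 13.7 CPM in colon, without overlap, and the log2 fold change of 0.97 ± 0.35 had an adjusted p of 0.0516. With the mouse as a block, *Cd5* passed with Δchat (adjusted p = 0.0371; 0.0371 to 0.392 over 14 alternatives) and with WT (adjusted p = 0.0187; 0.0141 to 0.202).

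Of the coreceptors, *Cd4* (ENSMUSG00000023274, GRCm38 chr6:124864692-124888221, minus strand) differed by the greatest factor between tissues with WT. It was at 75.0, 154, 82.2 and 69.7 CPM in ileum Δchat, against 34.4, 65.8, 29.5 and 31.4 CPM in colon Δchat. In WT mice it was at 101, 116, 99.8 and 130 CPM in ileum, against 36.1, 42.9, 35.2 and 34.3 CPM in colon. No ileum value overlapped the colon values of the same strain, and Δchat mouse 2 was highest in both of its tissues. The gene was 2.36-fold higher with Δchat (log2 1.24 ± 0.27, adjusted p = 0.00793) and 3.01-fold higher with WT (log2 1.59 ± 0.27, adjusted p = 0.00132).

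Macrophage markers moved with *Cd4*. All 9 lay higher in ileum with either strain, and 8 of the 9 were called in each. Their summed level was 1607, 5153, 2373 and 1356 CPM in ileum of Δchat mice 1 to 4, and 882, 1533, 1039 and 1249 CPM in their colon. In WT mice it was 2290, 1687, 2348 and 2435 CPM in ileum and 908, 1024, 865 and 845 CPM in colon. None of the 9 was at 0 in any library, and Δchat mouse 2 was the highest of its group in both tissues, as it was for *Cd4*. The same mouse also stood out in *Foxp3*, the factor of regulatory T cells, which was singled out after its values were seen: 12.8, 88.4, 8.49 and 10.9 CPM in ileum Δchat, 33.5, 68.5, 30.2 and 41.2 CPM in ileum WT, 15.4, 73.5, 10.8 and 10.03 CPM in colon Δchat and 12.6, 15.6, 12.8 and 13.9 CPM in colon WT. The parts of macrophages and of regulatory T cells in the *Cd4* level were not tested.

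**Figure D2:**
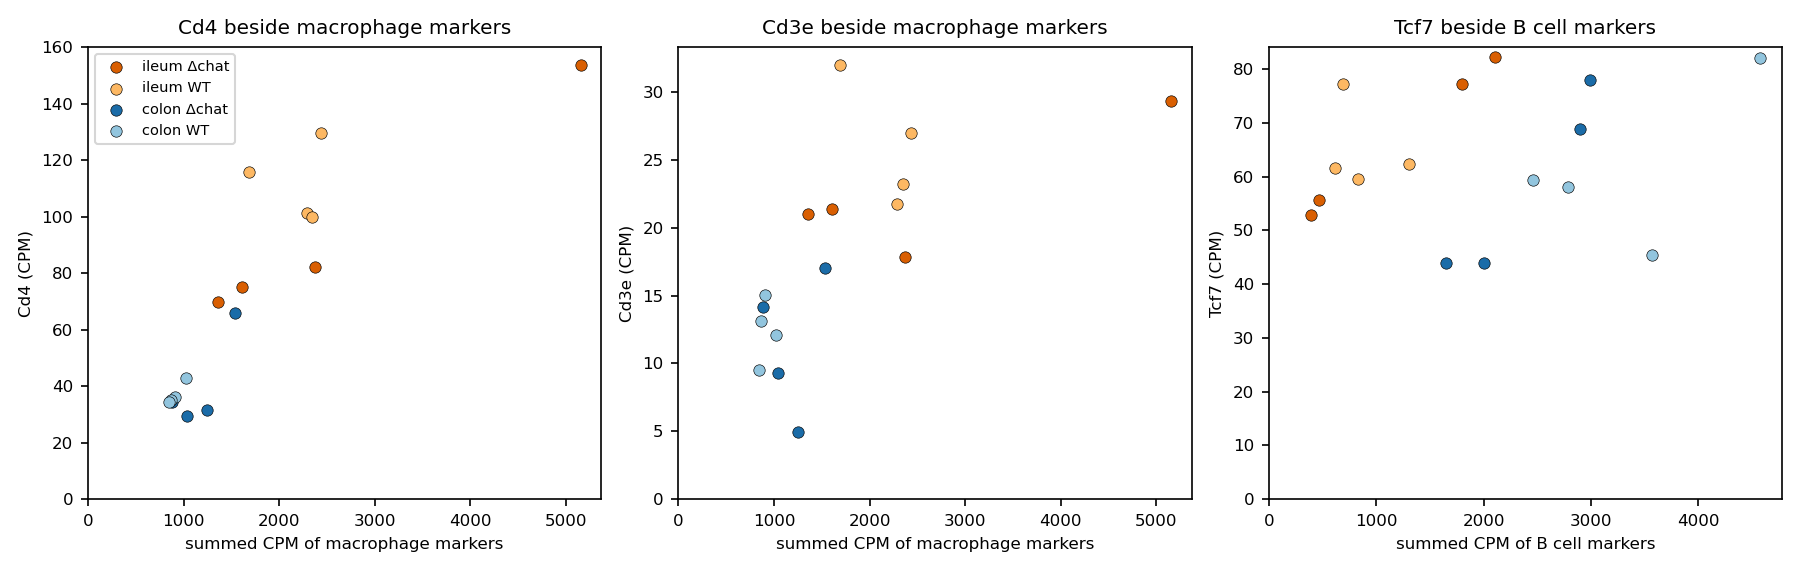
CPM of *Cd4* and of *Cd3e* (vertical axes) against the summed CPM of 9 macrophage markers, and CPM of *Tcf7* against that of 10 B cell markers, with 1 point for each library and colours for ileum Δchat, ileum WT, colon Δchat and colon WT. The point of ileum Δchat mouse 2 has the highest *Cd4* level, 154 CPM, and the highest macrophage sum, 5153 CPM.

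*Cd8a* (ENSMUSG00000053977, GRCm38 chr6:71373427-71379173, plus strand) encodes the alpha chain that every form of CD8 contains. With Δchat it was at 27.8, 21.9, 24.9 and 29.2 CPM in ileum and at 18.3, 12.01, 6.05 and 6.91 CPM in colon, without overlap, and rose 2.40-fold (log2 1.26 ± 0.30, adjusted p = 0.0135). With WT it was at 21.1, 19.0, 22.3 and 24.8 CPM in ileum and at 20.1, 11.2, 11.3 and 9.37 CPM in colon. Colon of WT mouse 1 lay among the ileum values, and the log2 fold change of 0.75 ± 0.30 did not pass (adjusted p = 0.0761).

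*Cd8b1* (ENSMUSG00000053044, GRCm38 chr6:71322788-71337494, plus strand) encodes the beta chain, which conventional CD8 T cells carry and which many intraepithelial T cells lack. It was the least counted of the 10, with 37 to 166 counts a library in colon Δchat and 75 to 211 in colon WT. With Δchat it was at 12.2, 7.25, 7.84 and 11.3 CPM in ileum and at 7.32, 4.52, 2.09 and 1.86 CPM in colon, where colon of mouse 1 just overlapped ileum of mouse 2. The log2 fold change was 1.28 ± 0.39 (adjusted p = 0.0410). With WT it was at 8.28, 7.64, 7.09 and 9.35 CPM in ileum and at 11.6, 6.42, 6.99 and 4.23 CPM in colon, and the log2 fold change was 0.15 ± 0.38 (adjusted p = 0.803; 95% interval -0.66 to 0.96). The difference between these changes, 1.13 ± 0.54, did not pass (adjusted p = 0.637).

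The transcription factors parted. *Bcl11b* (ENSMUSG00000048251, GRCm38 chr12:107910403-108003602, minus strand), which guards T cell commitment, rose with both strains. It was at 38.5, 47.9, 30.4 and 39.0 CPM in ileum Δchat and at 23.7, 24.6, 17.4 and 16.2 CPM in colon Δchat (log2 0.93 ± 0.18, adjusted p = 0.00368). With WT it was at 32.6, 49.5, 30.9 and 33.8 CPM in ileum and at 14.3, 15.8, 16.8 and 15.3 CPM in colon (log2 1.24 ± 0.18, adjusted p = 4.07e-04). The tissues did not overlap with either strain. *Tcf7* (ENSMUSG00000000782, GRCm38 chr11:52252371-52283014, minus strand), which naive and memory T cells use, passed with neither. It was at 82.2, 55.6, 52.9 and 77.2 CPM in ileum Δchat, at 59.5, 77.2, 62.4 and 61.6 CPM in ileum WT, at 78.0, 68.9, 43.9 and 43.9 CPM in colon Δchat and at 82.1, 58.1, 59.3 and 45.5 CPM in colon WT. These ranges all overlapped. Its log2 fold change was 0.19 ± 0.22 with Δchat (adjusted p = 0.597; 95% interval -0.27 to 0.66) and 0.09 ± 0.22 with WT (adjusted p = 0.791; 95% interval -0.38 to 0.55), and it was -0.01 with Δchat without Δchat mouse 4 and -0.01 with WT without WT mouse 2.

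*Thy1* (ENSMUSG00000032011, GRCm38 chr9:44043384-44048579, plus strand), a surface glycoprotein of T cells, innate lymphoid cells and some stromal cells, rose with both strains. It stood at 88.3, 77.5, 75.0 and 84.2 CPM in ileum Δchat and at 59.0, 57.9, 54.2 and 47.6 CPM in colon Δchat, without overlap (log2 0.57 ± 0.13, adjusted p = 0.0100). With WT it stood at 82.6, 101, 76.2 and 100 CPM in ileum and at 55.1, 76.9, 62.8 and 49.9 CPM in colon, where mouse 2 overlapped ileum (log2 0.56 ± 0.13, adjusted p = 0.00693). Markers of natural killer and innate lymphoid cells moved with it: 7 of 8 lay higher in ileum with Δchat (3 called) and 8 of 8 with WT (5 called). Their sums ran from 134 to 275 CPM in ileum Δchat, 146 to 270 CPM in ileum WT, 85.6 to 115 CPM in colon Δchat and 61.5 to 81.6 CPM in colon WT, and their part in the *Thy1* level was not tested. Of 9 stromal markers, 0 lay higher in ileum with Δchat (1 called lower) and 3 with WT (0 called in either direction). Their sums ran from 1193 to 6451 CPM in ileum Δchat, 4082 to 6548 CPM in ileum WT, 4385 to 6667 CPM in colon Δchat and 4122 to 8700 CPM in colon WT. The part of stromal cells in the *Thy1* level was not tested.

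Taken by mouse, 8 of the 10 genes (all but *Cd8b1* and *Tcf7*) were higher in ileum than in colon in 8 of 8 mice, *Cd8b1* in 7 and *Tcf7* in 6. No share over all genes was computed for this count, and the pairing by mouse rests on the design text and library names. Ileum and colon did not overlap for 5 of 10 with Δchat, where 9.38% of all genes lay higher and 6.09% lower without overlap, and for 6 of 10 with WT, where 16.3% lay higher and 18.6% lower; all were higher in ileum. Calls changed when mice were left out: without Δchat mouse 4, 2 of the 10 were called with Δchat (*Cd4* and *Bcl11b*), and without WT mouse 2 or WT mouse 4, 3 were called with WT (*Cd4*, *Thy1* and *Bcl11b*). With the mouse as a block, 8 were called with Δchat and 7 with WT. *Cd4* and *Bcl11b* were called in both strains under all 14 alternatives. With Δchat, *Cd3e* lost its call without Δchat mouse 1, 3 or 4 or WT mouse 1, 2 or 3, whose libraries share the fit (adjusted p up to 0.0834, log2 0.75 to 1.12 in these fits), and *Cd8b1* without Δchat mouse 2, 3 or 4 or WT mouse 2 or 3 (up to 0.151, log2 0.96 to 1.47). *Cd8a* (0.0719) and *Thy1* (0.0521) lost theirs without Δchat mouse 4. With WT, *Cd3e* (up to 0.0759), *Trac* (up to 0.0728) and *Lck* (up to 0.0929) lost theirs without WT mouse 2 or 4, *Cd8a* gained one without Δchat mouse 1 or 3, and *Cd5* without Δchat mouse 2 or 3. Other settings added calls too: DESeq2 for *Trac* with Δchat (adjusted p = 0.0223) and for *Cd8a* (0.0359; 0.0359 to 0.267 over its alternatives) and *Cd5* (0.0170) with WT. *Cd5* with WT was also called with RLE size factors (0.0456), with a filter of 1 CPM (0.0412) and without immunoglobulin genes (0.0429). The difference between the strains' tissue changes was called for 0 of the 10 by edgeR, where 0.0592% of all genes were called. At an unadjusted edgeR p under 0.05 stood 0 of the 10, against 7.72% of all genes. DESeq2 called 0 of the 10 and 58 of the 15198 genes tested.

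**Figure D3:**
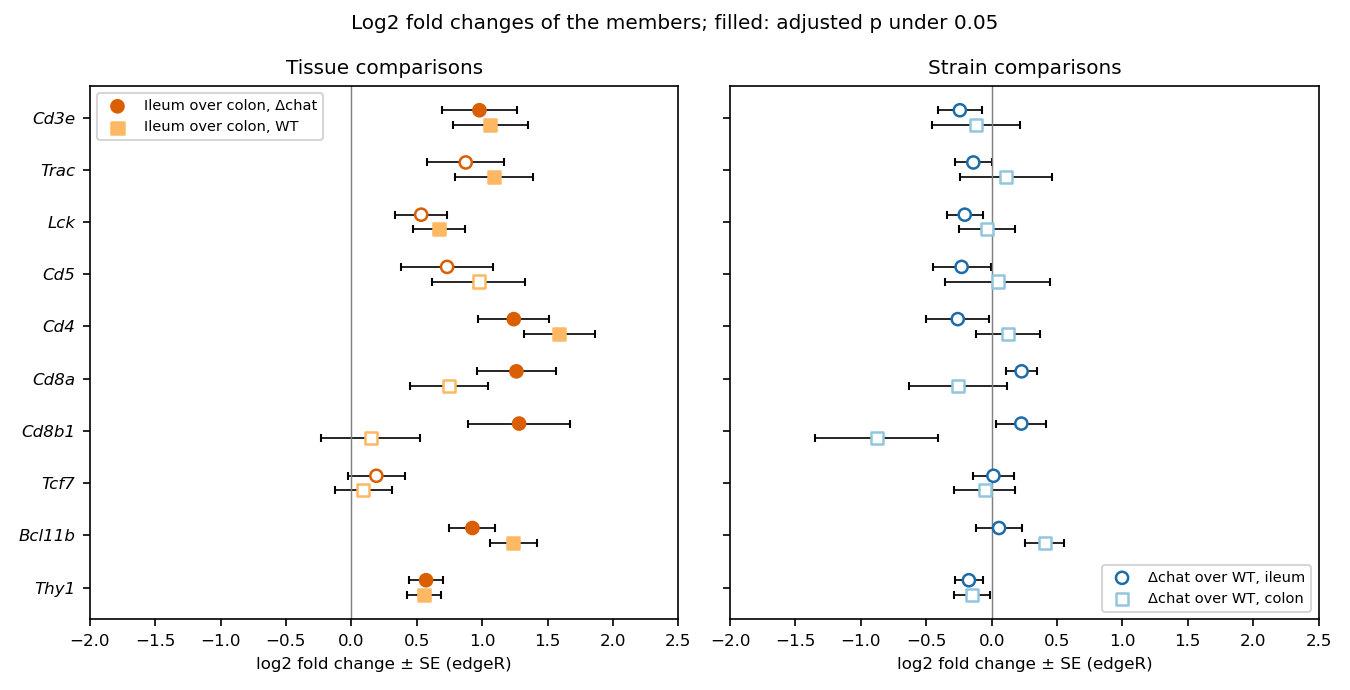
Log2 fold changes (horizontal axis, ± SE, edgeR) of the 10 genes for ileum over colon with each strain on the left and for Δchat over WT in each tissue on the right; filled symbols have an adjusted p under 0.05. All tissue changes lie above 0, with 6 filled for each strain, and no strain change is filled.

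The wider T cell lists moved in the same direction as the members for receptor, signalling and residency genes. Their counts of calls stand beside 8.31% of all genes called higher and 5.03% lower with Δchat. With WT these shares were 13.7% higher and 15.1% lower. Of 5 other receptor genes tested, 4 were called higher with each strain, among them *Trbc1* (log2 0.62 ± 0.15 with Δchat, 0.73 ± 0.15 with WT), *Cd3g* (0.93 ± 0.25 with Δchat, 1.11 ± 0.25 with WT) and *Cd3d* (0.89 ± 0.22 with Δchat, 0.77 ± 0.22 with WT). *Trbc1* and *Trbc2* are near-identical copies between which reads may be split. Of 15 genes of receptor signalling, 12 were called higher with each strain, while 0 with Δchat and 1 with WT were called lower, which was *Cd2* (-0.84 ± 0.24), a contact receptor. *Lcp2*, an adaptor, had a log2 fold change of 1.19 ± 0.18 with Δchat and 1.46 ± 0.18 with WT, and *Zap70*, the kinase that binds phosphorylated CD3, one of 1.01 ± 0.18 with Δchat and 1.29 ± 0.19 with WT.

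Among 10 genes of resident and activated T cells, 6 were called higher with Δchat and 9 with WT. *Ccr9*, the receptor that guides lymphocytes to the small intestine, was at 71.2 ± 10.3 CPM in ileum Δchat and 9.28 ± 2.11 CPM in colon Δchat (log2 2.94 ± 0.22, adjusted p = 6.43e-06), and at 96.7 ± 17.5 CPM in ileum WT and 12.5 ± 4.11 CPM in colon WT (log2 2.95 ± 0.22, adjusted p = 4.32e-06). *Cd69*, which keeps T cells in tissue, was called with both strains (0.87 ± 0.17 with Δchat, 0.66 ± 0.17 with WT). Of 11 genes of CD8 and intraepithelial lymphocytes, 8 were called higher with Δchat and 10 with WT. *Gzma*, a granzyme, was at 29.1 ± 4.46 CPM in ileum Δchat and 2.22 ± 0.465 CPM in colon Δchat, and at 37.4 ± 6.51 CPM in ileum WT and 3.42 ± 0.635 CPM in colon WT (log2 3.71 ± 0.19 with Δchat, 3.45 ± 0.19 with WT). Natural killer cells share many genes of this list. The 8 markers of natural killer and innate lymphoid cells had a median of 0.83 with Δchat (3 called) and 0.88 with WT (5 called), and the 5 gamma delta T cell markers tested had one of 0.95 with Δchat (3 called) and 0.87 with WT (3 called). Their part in the list was not tested. Genes of naive and recirculating T cells did not follow: of 7, 0 were called with Δchat. With WT, those called included *Il7r*, a cytokine receptor, which was higher (1.04 ± 0.19), and *Ccr7*, a lymph node homing receptor that B cells express too, which was lower (-1.64 ± 0.47). The 10 B cell markers lay lower in ileum, with 0 called with Δchat and 10 with WT, and summed to between 396 and 2102 CPM in ileum Δchat, 612 and 1302 CPM in ileum WT, 1647 and 2990 CPM in colon Δchat and 2459 and 4570 CPM in colon WT. Their part in the naive list was not tested. Of 6 genes of the CD4 lineage, 1 was called with Δchat (*Icos*, 0.76 ± 0.24) and 3 with WT, *Icos* (1.14 ± 0.24), *Maf* (0.54 ± 0.18) and *Cd40lg* (1.51 ± 0.45). The 7 other transcription factors gave 1 higher with Δchat (*Runx3*, 0.50 ± 0.15) and 3 higher and 2 lower with WT. In lists this short, 1 call higher with Δchat and 2 lower with WT are near the shares of all genes (8.31% and 15.1%). *Gata3*, the factor of type 2 helper cells, was among the higher ones with WT (1.73 ± 0.33), and *Ets1* (-0.92 ± 0.21) and *Satb1* (-1.82 ± 0.45) were the lower ones. *Icos*, *Itgae* and *Runx3* each stand in 2 of these lists, and *Cd2*, *Cd40lg* and *Satb1* were named after their values were seen.

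The strains were then compared within each tissue, which asks whether loss of bacterial acetylcholine moves with T cell transcripts. In colon, 0 of the 10 T cell genes were called between Δchat and WT by edgeR or DESeq2, where 0.00682% of 14660 genes tested were called by edgeR. At an unadjusted p under 0.05 stood 1 of the 10, against 13.3% of all genes. Their median log2 fold change was -0.04, that of all genes 0.01. *Bcl11b* had the smallest p. It averaged 20.5 ± 4.31 CPM in colon Δchat and 15.6 ± 1.03 CPM in colon WT (SD, n = 4), the groups overlapped, and the log2 fold change of 0.41 ± 0.15 had an unadjusted edgeR p of 0.0237 and an adjusted p of 0.335. Mice 1, 2 and 3 of the Δchat group, at 23.7, 24.6 and 17.4 CPM, lay above every WT mouse, and mouse 4, at 16.2 CPM, did not.

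None of the other 9 genes passed in colon. *Cd8b1* averaged 3.95 ± 2.55 CPM in colon Δchat and 7.30 ± 3.07 CPM in colon WT, and the log2 value was -0.88 ± 0.47 (adjusted p = 0.445; 95% interval -1.95 to 0.19). *Cd8a* averaged 10.8 ± 5.64 CPM in colon Δchat and 13.0 ± 4.84 CPM in colon WT (-0.26 ± 0.38, adjusted p = 0.788), and *Cd4* 40.3 ± 17.1 CPM in colon Δchat and 37.1 ± 3.89 CPM in colon WT (0.13 ± 0.25, adjusted p = 0.845). *Cd3e* averaged 11.3 ± 5.33 CPM in colon Δchat and 12.4 ± 2.32 CPM in colon WT (-0.12 ± 0.34, adjusted p = 0.898; 95% interval -0.89 to 0.65). The remaining 5 genes, *Trac*, *Lck*, *Tcf7*, *Thy1* and *Cd5*, had log2 fold changes between -0.15 and 0.11. Within colon Δchat, mice 3 and 4 had the lowest levels of *Cd3e*, *Trac*, *Lck*, *Cd5*, *Cd4*, *Tcf7*, *Cd8a* and *Cd8b1*, below every WT mouse. Mice 1 and 2 did not, though for *Cd4* mouse 1 was close to the lowest WT mouse (34.4 against 34.3 CPM). The library of mouse 3 held the most epithelial RNA, with a sum of 3340 CPM. The epithelial sums of Δchat mice 1, 2 and 4 were 227, 273 and 217 CPM, above the 44.1 to 200 CPM of the colon WT libraries. When the mean level of the epithelial markers entered the fit, the median of the 10 genes was 0.29, 8 of them lay above 0 and 0 were called. That mean log2 CPM was 3.75 to 7.66 in colon Δchat, the highest in mouse 3, and 1.46 to 3.56 in colon WT. The groups did not overlap in it, so that fit cannot separate strain from epithelial content. In fits without this covariate, the median was 0.07 without Δchat mouse 3, 0.10 without Δchat mouse 4 and 0.10 without WT mouse 1.

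In ileum, 0 of the 10 were called between Δchat and WT by edgeR or DESeq2, where 0.0207% of 14496 genes tested were called by edgeR. At an unadjusted p under 0.05 stood 0 of the 10, against 10.9% of all genes. Their median log2 fold change was -0.16, that of all genes 0.01, with 4 above 0 and 6 below. The values were -0.24 ± 0.17 for *Cd3e* (22.4 ± 4.89 CPM in ileum Δchat, 26.0 ± 4.56 CPM in ileum WT), -0.26 ± 0.24 for *Cd4* (95.2 ± 39.5 CPM in ileum Δchat, 112 ± 14 CPM in ileum WT) and 0.23 ± 0.12 for *Cd8a* (26.0 ± 3.25 CPM in ileum Δchat, 21.8 ± 2.44 CPM in ileum WT). Their adjusted p values were 0.627, 0.722 and 0.525. The 95% intervals of the 10 ileum changes lay between -0.81 and 0.66, and those of the 10 colon changes between -1.95 and 0.96. In no tissue did the Δchat and WT libraries of a member fail to overlap, where 3.98% of all genes in colon and 3.24% in ileum lay higher without overlap and 3.27% in colon and 4.10% in ileum lower.

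The wider T cell lists had 0 members called between Δchat and WT in either tissue. Counts at an unadjusted p under 0.05 stand beside 13.3% of all genes in colon and 10.9% in ileum. In colon, the 10 genes of resident and activated T cells had a median log2 fold change of 0.37, with 4 at an unadjusted edgeR p under 0.05. Of the 10, 7 lay above 0 and 3 below. The most abundant, *Rgs1*, had a value of 0.71 ± 0.22 (adjusted p = 0.313). The next, *Cd69*, went the other way at -0.35 ± 0.15 (adjusted p = 0.355). The 11 genes of CD8 and intraepithelial lymphocytes had a median of 0.31, with 4 under 0.05. Their most abundant, *Runx3*, was at 0.21 ± 0.14 (adjusted p = 0.537). *Itgae*, the integrin that binds epithelial cadherin, was at 0.57 ± 0.16 (adjusted p = 0.313). The CD4 lineage list had a median of 0.52 over 6 genes, with 0 under 0.05. In ileum, the same lists had medians of -0.16, 0.00 and -0.08, with 4, 4 and 0 genes under 0.05, and *Itgae* had a value of -0.53 ± 0.22 (adjusted p = 0.441). Markers of other cell types moved beside them in colon, with 0 called in any of these lists. There the median was 3.36 for epithelium (10 of 10 at an unadjusted p under 0.05), -0.93 for plasma cells (8 of 9), 0.75 for macrophages (8 of 9), 0.43 for dendritic cells (5 of 7) and 0.35 for natural killer and innate lymphoid cells (3 of 8). In ileum it was 0.79 for epithelium (0 of 10), -0.48 for plasma cells (6 of 9), 0.20 for macrophages (0 of 9), -0.13 for dendritic cells (2 of 7) and 0.07 for natural killer and innate lymphoid cells (1 of 8). Their part in the T cell lists was not tested.

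**Figure D4:**
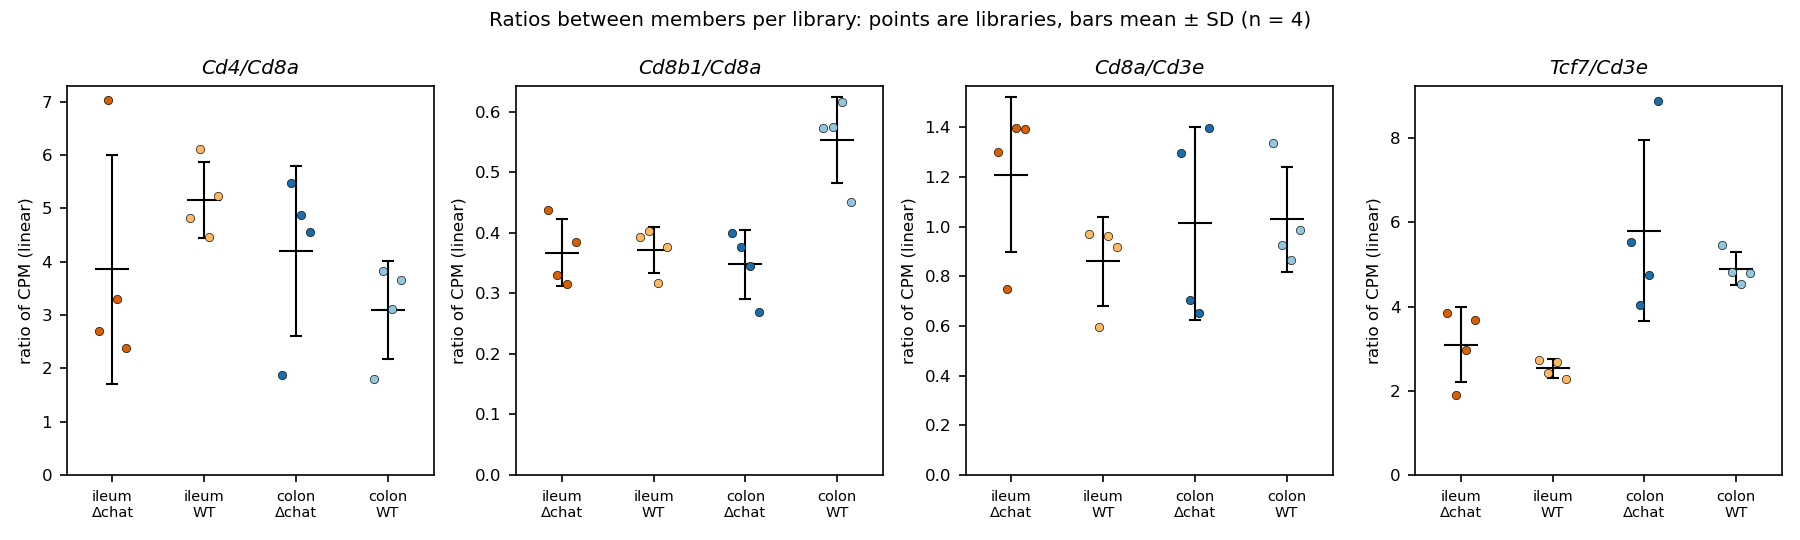
Ratios of CPM between members in each library (vertical axis, linear) for *Cd4* over *Cd8a*, *Cd8b1* over *Cd8a*, *Cd8a* over *Cd3e* and *Tcf7* over *Cd3e*, with points for libraries and bars for mean and SD of 4. The *Cd8b1* to *Cd8a* points of colon Δchat, between 0.270 and 0.400, lie below those of colon WT, between 0.452 and 0.616.

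The balance of *Cd4* to *Cd8a* does not depend on how a library is scaled. As a ratio of CPM, not set against length, it was 2.70, 7.03, 3.30 and 2.39 in ileum of Δchat mice 1 to 4, 4.81, 6.11, 4.47 and 5.23 in ileum of WT mice, 1.88, 5.48, 4.88 and 4.55 in colon of Δchat mice and 1.79, 3.83, 3.11 and 3.66 in colon of WT mice. In ileum, Δchat mice 1, 3 and 4 lay below every WT mouse and Δchat mouse 2 above them all. Mouse 2 had the highest sums both of macrophage markers and of CD4 lineage genes. Groups were compared by 2-sided exact permutation tests on log2 ratios, with adjustment over 28 tests (7 ratios in 4 comparisons). For Δchat over WT the log2 difference was -0.55 in ileum (exact p = 0.171, adjusted 0.480) and 0.39 in colon (exact p = 0.400, adjusted 0.800). Without Δchat mouse 2, the ileum value was -0.89 (exact p = 0.0286, adjusted 0.133, the lowest of its alternatives, whose highest was 0.853). In colon, the value was 0.74 without Δchat mouse 1 (exact p = 0.0571, adjusted 0.267 in a range of 0.267 to 0.941), 0.22 without Δchat mouse 2 and 0.14 without WT mouse 1.

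Between tissues, the *Cd4* to *Cd8a* ratio was higher in ileum in 6 of 8 mice, with a mean log2 difference of 0.32 (exact p = 0.273, adjusted 0.638). This ileum minus colon difference was -0.15 ± 0.71 in Δchat mice and 0.78 ± 0.43 in WT mice (SD, n = 4 each), which differed by -0.94 (exact p = 0.0571, adjusted 0.320). With *Cd8b1* in place of *Cd8a* the difference between strains was -1.59 (exact p = 0.0286, adjusted 0.160), and with the sum of *Cd8a* and *Cd8b1* it was -1.14 (exact p = 0.0286, adjusted 0.160). None of these passed after adjustment, and over all alternatives of this difference the adjusted value ran from 0.160 to 0.800.

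Within CD8, *Cd8b1* over *Cd8a* was 0.400, 0.376, 0.345 and 0.270 in colon of Δchat mice 1 to 4, against 0.573, 0.574, 0.616 and 0.452 in colon of WT mice. The groups did not overlap, with a log2 difference of -0.68. The exact p of 0.0286 is the smallest that 4 against 4 libraries can give, and after adjustment it was 0.200. In ileum, the ratio was 0.438, 0.331, 0.315 and 0.386 in Δchat mice and 0.393, 0.402, 0.317 and 0.377 in WT mice, with a log2 difference of -0.03 (adjusted exact p = 0.930). The ileum minus colon difference was 0.08 ± 0.32 in Δchat mice and -0.57 ± 0.29 in WT mice and did not overlap (exact p = 0.0286, adjusted 0.200).

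*Tcf7* over *Cd3e* was lower in ileum than in colon in 8 of 8 mice, with a mean log2 difference of -0.92. In Δchat mice it was 3.84, 1.90, 2.97 and 3.68 in ileum, against 5.53, 4.05, 4.74 and 8.89 in colon. In WT mice it was 2.74, 2.42, 2.69 and 2.28 in ileum, against 5.46, 4.81, 4.53 and 4.80 in colon. The exact p of 0.00781 is the smallest that sign changes over 8 mice can give, and its adjusted value was 0.200. *Thy1* over *Cd3e* had a tissue difference of -0.52, lower in ileum in 7 of 8 mice (exact p = 0.0234, adjusted 0.200). In all, 4 of the 28 tests had an unadjusted exact p under 0.05 and 0 passed after adjustment. The smallest exact p values, 0.0286 for 4 against 4 and 0.00781 for 8 mice, pass over 28 tests only if several tests reach them together. A single ratio could therefore not pass on its own, and the adjusted values cannot decide whether a ratio differs.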

How the data were processed

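Bulk RNA was measured in 16 libraries. The authors deposited estimated counts per gene, made with cutadapt 5.0 and Salmon 1.4.0 on GRCm39 per the submitters' processing notes; the annotation release is not given in the sources used here. Between 34.8 and 40.7% of values per library were not whole, and they were rounded to whole counts. Groups came from sample titles. The members, gene lists and tests were chosen with earlier results of these data known. Named genes are all 10 members, up to 3 called genes with the smallest p and at least 5 CPM from each wider list (with none called, the 2 most abundant), and the genes most alike over 16 libraries.

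R 4.3.3 and edgeR 4.0.16 were used on the counts: filterByExpr, TMM, robust quasi-likelihood fit, 2-sided p-values with Benjamini-Hochberg adjustment. The strains were compared in fits of 8 libraries, the tissues and their difference by strain in 1 fit of 16. SEs and 95% intervals come from these fits, CPM are scaled over 16 libraries, and log2 CPM hold a prior count of 2. Replicates are separate mice per the design text. The 24 pairs of replicates differed beyond counting noise (chi-square per degree of freedom 26.7 to 98.4).

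Pairing of tissues by mouse comes from the design text, which takes both tissues from 4 mice a group, and from the library names. Deviations of same-mouse libraries correlated between -0.18 and 0.27 with Δchat and between -0.06 and 0.07 with WT. Those of different mice correlated between -0.30 and 0.22 with Δchat and between -0.16 and 0.18 with WT. Of 4 colon libraries, 2 with Δchat and 1 with WT correlated best with the ileum library of their own number. The pairing therefore rests on the design text and names, and these correlations do not bear it out. Positions, transcript lengths (the longest basic transcript) and promoters are from GENCODE M21 and RefSeq on GRCm38, matched by gene identifier or symbol, and not from the build of the counts. On simulated counts, edgeR recovered 71% of genes changed by a log2 value of 1 and 93% of those changed by 2 in the colon strain comparison. In the simulation 100 genes were changed at each size, whereas in the measured colon libraries 1 of 14660 genes was called. The SEs of the members in the measured fit ran from 0.14 for *Thy1* to 0.47 for *Cd8b1*. The recovered shares therefore do not give the chance of calling a strain change in a member. The alternatives were RLE size factors, no filter, a filter of 1 CPM in 4 libraries, DESeq2 1.42.0, removal of immunoglobulin genes, a block, an epithelial covariate, 1 fit of 16 libraries, other denominators or 0.5 added to each count for ratios, and each mouse or library left out. The list symbols *Fyb1*, *Trgc1*, *Trgc2* and *Trgc4* matched no row. The value of 1 gene of the wider lists is not reported here.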

Additional observations from a re-analysis of the deposited data

Results flagged for a closer look

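In 68 sets of 4 libraries tested for a library far from the other 3, of member levels or ratios, 7 were picked out. Chance picks out about 1 in 20. *Cd4* had a far highest library in ileum Δchat (153.9 CPM, the next 82.2 CPM) and in colon Δchat (65.8 CPM, the next 34.4 CPM), both of mouse 2, whose macrophage marker sums of 5153 CPM in ileum and 1533 CPM in colon were also the highest of their groups. The 6 CD4 lineage genes of mouse 2 also had the highest sums of their groups, 467 CPM in ileum and 324 CPM in colon. The parts of macrophages and of CD4 T cells in these levels were not tested. The same mouse had the far lowest ratios of *Cd8a* to *Cd3e* (0.747, the next 1.30) and of *Thy1* to *Cd3e* (2.64, the next 4.01) in ileum Δchat. In ileum WT, mouse 2 had the far highest *Bcl11b* (49.5 CPM, the next 33.8 CPM) and *Tcf7* (77.2 CPM, the next 62.4 CPM) and the far lowest ratio of *Cd8a* to *Cd3e* (0.594, the next 0.920).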

How the results depend on the processing

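Of 1148 values under alternatives, 1004 kept their direction and side of the threshold, 71 changed direction, 19 lost and 13 gained a call, and 41 counts moved by over 1.5 times. The causes were not tested. No alternative called a member between strains or in the difference by tissue.

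Genes called between strains in colon (1 in the main analysis) numbered 313 with DESeq2, 0 with the replicate number as a block, 10 in 1 fit of 16 libraries, 2 with the epithelial covariate and 0 to 3 with a library left out. In ileum (3) they numbered 374 with DESeq2, 5 with no filter, 42 in 1 fit of 16 libraries, 0 with RLE, the 1 CPM filter, the block or the epithelial covariate, and 0 to 247 with a library left out (247 without Δchat replicate 3). For the difference by tissue (9) they numbered 58 with DESeq2, 3 with the mouse as a block and 0 to 18 with a mouse left out. With a mouse left out, tissue calls ranged between 1149 and 1838 with Δchat (2028; 1149 without Δchat mouse 2) and between 1719 and 4950 with WT (4380; 1719 without WT mouse 1, 2704 without WT mouse 2 and 2082 without WT mouse 4), members called between 2 and 6 with Δchat and between 3 and 8 with WT. Replicate numbers do not pair mice across strains: same-numbered deviations correlated between -0.09 and 0.33 in colon and -0.27 and 0.01 in ileum, and 1 of 4 libraries in colon and 0 in ileum correlated best with its own number. The mouse block changed no call of a member beyond *Trac* with Δchat and *Cd5*.

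Direction changed, all without a call, in the following log2 values. In colon between strains, the epithelial covariate gave 0.0415 for *Cd3e*, 0.36 for *Cd8a*, 0.26 for *Lck* and 0.26 for *Tcf7*, and the block -0.14 for *Cd5* and -0.0108 for *Trac*. In ileum, *Tcf7* was at -0.0861 with the covariate and -0.0029 with the block. In the difference by tissue, *Thy1* was at -0.0239 with RLE, -0.0234 with DESeq2, -0.0308 with the 1 CPM filter and -0.0111 without immunoglobulin genes, and *Cd3e* at 0.0174 with the mouse block. Leaving out a library or mouse gave ranges across 0. In colon between strains these were -0.39 to 0.13 for *Cd3e*, -0.22 to 0.24 for *Cd4*, -0.30 to 0.29 for *Cd5*, -0.63 to 0.0293 for *Cd8a*, -0.22 to 0.0821 for *Lck*, -0.22 to 0.12 for *Tcf7* and -0.15 to 0.31 for *Trac*. In ileum they were -0.0499 to 0.24 for *Bcl11b* and -0.0923 to 0.11 for *Tcf7*. In the difference by tissue they were -0.33 to 0.0597 for *Cd3e*, -0.12 to 0.27 for *Tcf7* and -0.11 to 0.12 for *Thy1*. Between tissues they were -0.0792 to 0.45 for *Cd8b1* and -0.0111 to 0.31 for *Tcf7* with WT, and -0.0115 to 0.36 for *Tcf7* with Δchat. For ratios over *Cd3e*, the colon strain values were -0.0588 to 0.38 (*Cd5*), -0.27 to 0.10 (*Cd8a*), -0.0460 to 0.33 (*Tcf7*) and -0.17 to 0.33 (*Thy1*), and the ileum strain values -0.20 to 0.0234 (*Cd4*) and -0.0441 to 0.10 (*Cd5*). The tissue value of *Cd8a* over *Cd3e* was -0.14 to 0.11, the differences by strain of ratios over *Cd3e* were -0.29 to 0.0597 (*Cd5*), -0.0606 to 0.19 (*Tcf7*) and -0.20 to 0.21 (*Thy1*), and *Cd8b1* over *Cd8a* in ileum between strains was -0.11 to 0.0442.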
